A study of Mus musculus with 9 samples.

Results

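The proximal signalling components of the B cell receptor (BCR) described here are 8 genes: Cd79a, Cd79b, Syk, Btk, Blnk, Plcg2, Vav1 and Dapp1. They were taken by name from a table of 22178 genes, and all 8 were found and passed the filter on low values. The RNA-seq data hold 3 libraries each of 3 kinds of mouse B cell, all on a backcrossed C57BL/6 background. Splenic B2 cells carry the strain label VH12B1-8/Vk4, and peritoneal B1 cells the strain label B1-8VH12/Vk4. B2B1 cells were taken from the peritoneal cavity under the second label, about 30 days after a switch of their BCR had been induced. Both strain labels include Vk4. The labels do not give ages, sorting gates or the number of mice, and the p-values reflect the spread between samples alone, which may be technical.

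The BCR is a membrane immunoglobulin that cannot signal alone. It is held with a heterodimer of Cd79a (Ig alpha) and Cd79b (Ig beta), whose tails carry the tyrosine motifs that Src family kinases phosphorylate. Syk docks on these motifs and phosphorylates the adaptor Blnk (SLP-65), which assembles Btk, Plcg2 and Vav1 into a complex at the membrane. Plcg2 then cleaves a membrane phospholipid into the messengers that release calcium and activate protein kinase C, Vav1 acts as a guanine nucleotide exchange factor, and Dapp1 (Bam32) is an adaptor recruited by the lipid products of PI3 kinase. B1 cells are known for a muted calcium response to BCR crosslinking compared with splenic B2 cells.

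The values are TPM, a relative transcript abundance corrected for gene length, so levels of different genes can be compared within a library, but the sequencing depth is unknown. All 7 B cell markers checked were present in every group, with summed levels of 5462 to 5589 TPM in B2, 3866 to 4565 in B2B1 and 4796 to 5510 in B1. Markers of B1 cells summed to 25.1 to 26.6 TPM in B2, 1198 to 1307 in B2B1 and 711 to 869.6 in B1, but the B1 marker Cd5 stood at only 1.22 to 1.85 TPM in B2B1 against 13.4 to 22.9 in B1. The 8 macrophage markers in the table summed to 1.23 to 2.40 TPM in B2, 63.7 to 239.7 in B2B1 and 21.1 to 46.0 in B1. Emr1 and Lyz2 made up most of this, Csf1r, Cd14, Fcgr1, Mertk and Timd4 each stayed at or under 2.13 TPM, and B2B1 library 1 was the highest, with Lyz2 at 180.9 TPM. The 8 T cell markers summed to 15.9 to 19.2 TPM in B2, 22.2 to 27.5 in B2B1 and 26.9 to 33.0 in B1. Among them Cd3e did not exceed 0.0837 TPM in any library, while Cd3g averaged 0.122 TPM in B2, 0.373 in B2B1 and 7.81 in B1, and Lck 6.72, 17.9 and 12.4. The 6 dendritic cell markers summed to 84.0 to 96.6 TPM in B2, 103 to 186 in B2B1 and 57.3 to 70.5 in B1, most of it Bst2. Siglech was at 0 in every library, and Flt3 averaged 15.2 TPM in B2, 0.114 in B2B1 and 0.0552 in B1. The 5 NK cell markers summed to 11.7 to 18.1 TPM in B2, 0.639 to 0.98 in B2B1 and 0.897 to 1.15 in B1, with Prf1 averaging 13.7 TPM in B2 and Ncr1 at 0 there. The part of other cells in the results was not tested. Ddx3y, a Y-linked gene, was above Xist in 3 libraries, B2 library 2 and B2B1 libraries 1 and 2. Every B1 library had Xist above Ddx3y. Sex and group are therefore partly confounded in B2B1 against B1, and a sex term can hardly separate them there.

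The 8 members were among the more abundant transcripts of all 3 groups. Together they made up 6675 to 8593 TPM of a library, and each ranked above at least 80.0% of the tested genes in every library. Both receptor chains led everywhere, followed by Syk, and Vav1 and Dapp1 closed the order in every group. The places between them differed by group. In B2 the order was Blnk, Btk and Plcg2 with no overlap between neighbours, whereas in B2B1 Plcg2 and Blnk overlapped, as did Blnk and Btk. In B1 the order was Blnk, Plcg2 and Btk, with overlap between Blnk and Plcg2 and again between Vav1 and Dapp1.

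Between the groups the members did not move as a block. Syk was higher and Btk and Blnk were lower in both kinds of peritoneal cell than in B2, while neither receptor chain passed the test in any comparison. For B1 against B2, 1 of 8 members was called higher and 3 lower by limma at an adjusted p under 0.05, where 51.9% of all tested genes were called, 18.0% higher and 33.9% lower. The libraries of these 4 members did not overlap, as was so for 61.7% of all genes, 21.9% higher and 39.8% lower. In B2B1 against B2, 1 was called higher and 5 lower, where 63.0% of all genes were called, 21.0% higher and 42.0% lower. The groups did not overlap for 7 members, these 6 and Cd79b, and for 72.2% of all genes, 24.5% higher and 47.7% lower. For B2B1 against B1, 0 were called higher and 3 lower, where 19.0% of all genes were called, 6.93% higher and 12.1% lower. Those 3 were also the members without overlap, against 35.7% of all genes, 12.0% higher and 23.7% lower. The members' median log2 fold changes were −0.06, −0.35 and −0.16 in these comparisons, beside −0.14, −0.19 and −0.06 over all genes. Spleen and peritoneal cavity, the strain labels and the cell types differ together in both comparisons with B2, and so cannot be told apart. These are bulk samples, in which fewer cells of a type and less RNA per cell cannot be told apart either.

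**Figure D1:**
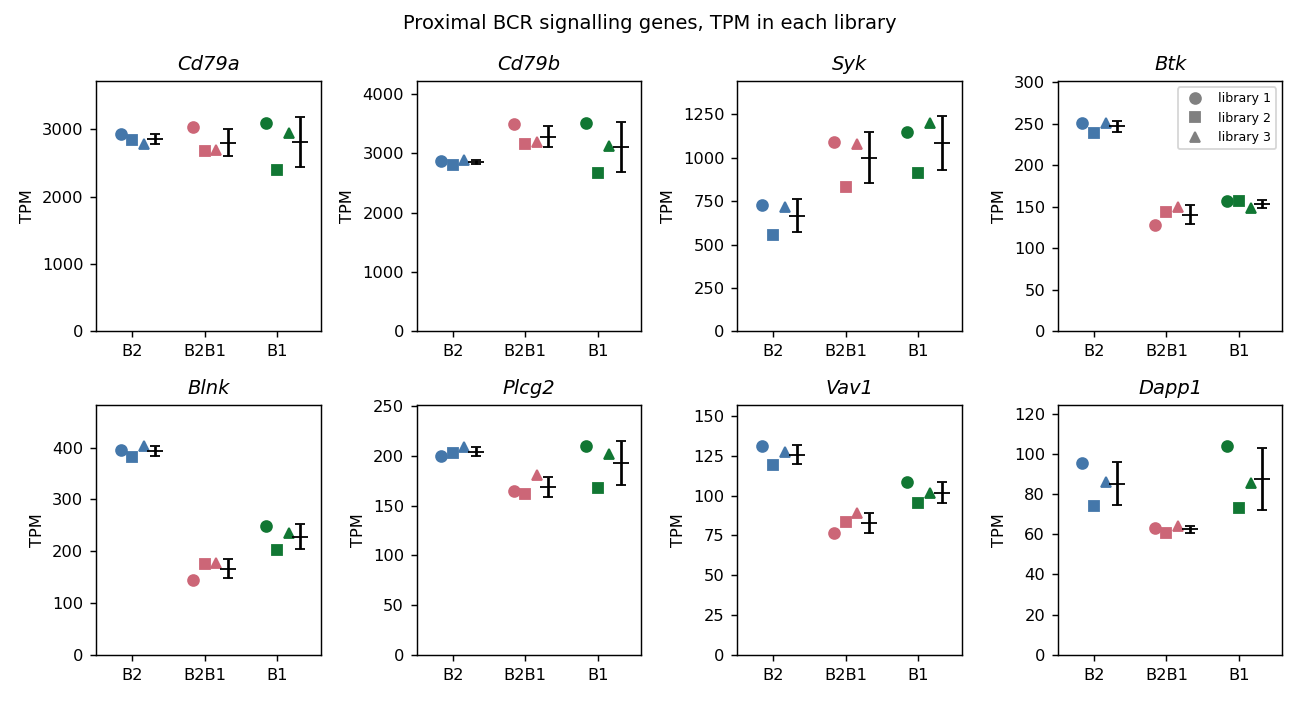
TPM of the 8 members in each library of B2 (blue), B2B1 (red) and B1 cells (green), with marker shapes for the library number and black bars for the mean ± SD of 3 libraries; each vertical axis starts at 0. Syk sits higher and Btk and Blnk lower in every peritoneal library than in any B2 library, while the Cd79a values of the groups overlap.

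The receptor chains come first in the pathway. Cd79a was at 2935, 2848 and 2785 TPM in B2 libraries 1 to 3, at 3030, 2676 and 2694 in B2B1, and at 3098, 2393 and 2943 in B1. The groups overlap completely, and B1 library 2 holds the lowest value of all. The difference was −0.03 on the log2 scale in B1 against B2, with a 95% interval from −0.26 to 0.19, and 0.0007 in B2B1 against B1, with an interval from −0.22 to 0.22. These intervals do not show that the levels are equal, and they leave room for changes of up to about those sizes.

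Cd79b was at 2870, 2813 and 2883 TPM in B2, at 3491, 3168 and 3200 in B2B1, and at 3519, 2676 and 3131 in B1. Each B2B1 library lies above each B2 library, and the B1 libraries lie on both sides. The log2 fold change of B2B1 against B2 was 0.20 ± 0.10 (SE, limma adjusted p = 0.0928) and did not pass. Median-of-ratios scaling brought it past the threshold (0.43), as did the same test in a fit of these 2 groups alone (0.20), and without B1 library 1 or 2 (0.20 each), but was −0.03 after quantile normalization. Cd79b in B1 against B2 was called only without B1 library 2, at 0.22 (adjusted p = 0.0373), against 0.11 with all libraries (adjusted p = 0.343).

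A ratio within a library does not depend on how libraries are scaled. The ratio of Cd79b to Cd79a was 1.0001 ± 0.0307 in B2, 1.17 ± 0.0194 in B2B1 and 1.11 ± 0.0376 in B1 (mean ± SD, n = 3). Its values ran from 0.978 to 1.04 in B2, from 1.15 to 1.19 in B2B1 and from 1.06 to 1.14 in B1, so that no groups overlapped. This and the other ratios were chosen after the members' values were seen and are descriptions. An exact permutation test of the log2 ratios, over 20 splits of 3 against 3 libraries, cannot give a p under 0.1. None of its 12 comparisons passed (adjusted p from 0.12 to 0.3), so it decides nothing here.

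Syk, the tyrosine kinase that binds the phosphorylated receptor tails, rose in both comparisons with B2. It was at 726, 556 and 719 TPM in B2, at 1093, 834 and 1079 in B2B1, and at 1149, 911 and 1202 in B1. Every peritoneal library exceeds every B2 library, and library 2 is the lowest of its group in all 3 groups. The log2 fold change was 0.70 ± 0.15 in B1 against B2 (1.63-fold, limma adjusted p = 0.0041) and 0.59 ± 0.15 in B2B1 against B2 (1.50-fold, adjusted p = 0.00829). B2B1 and B1 differed by −0.12, with a 95% interval from −0.46 to 0.22. Syk is also expressed by macrophages, whose markers were higher in the peritoneal libraries. Without B2B1 library 1, which has the highest macrophage markers, the change in B2B1 against B2 was 0.52 ± 0.17 (limma adjusted p = 0.0305). B2B1 libraries 2 and 3 still held Emr1 at 39.9 and 40.1 TPM and Lyz2 at 22.3 and 44.5 TPM. The part of macrophages in the Syk values was not tested.

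Btk, the Tec family kinase that activates Plcg2, fell in both. Its values were 250.3, 239 and 251 TPM in B2, 127, 143 and 149.6 in B2B1, and 156, 156 and 148 in B1. The B2 values are closely grouped and lie far above all 6 others. The log2 fold change was −0.68 ± 0.07 in B1 (1.60-fold lower, limma adjusted p = 4.14e-05) and −0.82 ± 0.07 in B2B1 (1.76-fold lower, adjusted p = 9.69e-06). B2B1 against B1 gave −0.13 ± 0.07 (adjusted p = 0.189), with overlapping values. Btk lies on the X chromosome, and within B2 and within B2B1 the libraries with Ddx3y above Xist had lower Btk than the others. With a term for sex in the model the changes against B2 were −0.72 in B1 and −0.78 in B2B1 and both were called.

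Blnk, the adaptor on which Btk and Plcg2 meet, had the largest fall of the 8 in both comparisons with B2. It was at 396, 382 and 402 TPM in B2, at 145, 175 and 178 in B2B1, and at 249, 202 and 235 in B1. All 3 groups are apart, with B2B1 at the bottom. The log2 fold change was −0.79 ± 0.10 in B1 against B2 (1.72-fold lower, limma adjusted p = 0.000184) and −1.24 ± 0.10 in B2B1 against B2 (2.37-fold lower, adjusted p = 8.10e-06). Between B2B1 and B1 it was −0.46 ± 0.10 (1.37-fold lower, adjusted p = 0.0134). That last call was lost in a fit of the 2 groups alone (adjusted p = 0.0525) and with a sex term (−0.38, adjusted p = 0.0976), and was kept without any single library.

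Plcg2, the phospholipase that the complex activates, changed less. It was at 200.04, 203 and 209 TPM in B2, at 164, 162 and 180.5 in B2B1, and at 209.6, 168 and 202 in B1. The B2B1 values lie below those of B2, and B1 library 2 sits among the B2B1 libraries while the other B1 libraries sit with B2. Plcg2 was lower in B2B1 than in B2 by limma (log2 fold change −0.27 ± 0.09, adjusted p = 0.0199), which is −0.08 relative to the median of all genes. Plcg2 no longer passed under median-of-ratios scaling (−0.05), with quantile normalization (−0.13), and without B2 library 3, B2B1 library 1 or B2B1 library 2 (−0.26, −0.26 and −0.24). The change in B1 against B2 was −0.09 ± 0.09 (adjusted p = 0.426). B2B1 against B1 gave −0.19 ± 0.09 (adjusted p = 0.157), and without B1 library 2 it was −0.28 and called (adjusted p = 0.0162).

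Vav1, the exchange factor of the complex, was highest in B2 and lowest in B2B1. Its values were 131, 119 and 128 TPM in B2, 76.7, 83.3 and 89.0 in B2B1, and 109, 95.3 and 102 in B1. The 3 groups do not overlap. The log2 fold change of B2B1 against B2 was −0.60 ± 0.08 (1.51-fold lower, limma adjusted p = 0.000136). For B1 against B2 it was −0.30 ± 0.08 (adjusted p = 0.00847), and it no longer passed under median-of-ratios scaling (−0.15) or quantile normalization (−0.19). B2B1 against B1 gave −0.29 ± 0.08 (adjusted p = 0.0275). That call was lost under 7 of 21 alternatives. Among them were median-of-ratios scaling, a fit of the 2 groups alone and a sex term. The call was also lost on leaving out B2B1 library 1 or 2 (−0.24 and −0.30) or B1 library 1 or 3 (−0.25 and −0.29).

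Dapp1, the lipid-binding adaptor, was lower in B2B1 than in B2 and than in B1, as Blnk and Vav1 were, but B2 and B1 overlapped. It was at 95.2, 74.0 and 86.0 TPM in B2, at 62.9, 60.7 and 64.0 in B2B1, and at 104, 72.9 and 85.5 in B1. The B2B1 libraries are tightly grouped below all others, whereas B2 and B1 overlap over a wide range. The log2 fold change was −0.43 ± 0.13 against B2 (1.35-fold lower, limma adjusted p = 0.0163) and −0.46 ± 0.13 against B1 (1.38-fold lower, adjusted p = 0.0373). The first no longer passed under median-of-ratios scaling (−0.21), with quantile normalization (−0.28) and without B2 library 1 (−0.35). The second was lost under 12 of 21 alternatives. Among them were no filter on low values, median-of-ratios scaling, quantile normalization, no trend in the moderation, a fit of the 2 groups alone and a sex term. The second was also lost on leaving out B2 library 3 (−0.46), any single B2B1 library (−0.48 to −0.44) and B1 library 1 or 3 (−0.33 and −0.47). B1 against B2 gave 0.03 ± 0.13 (adjusted p = 0.86).

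**Figure D2:**
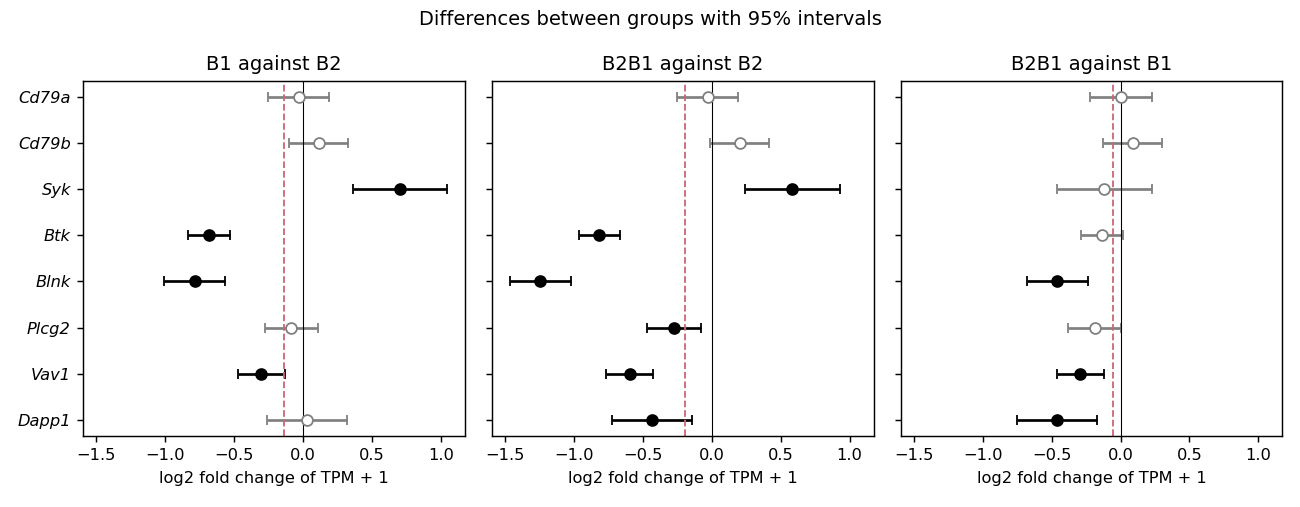
Log2 fold change of TPM + 1 for each member in the 3 comparisons, with 95% intervals from limma; filled points were called at an adjusted p under 0.05, open points were not, and the dashed line is the median of all genes tested. Syk lies right of 0 and Btk and Blnk left of 0 in both comparisons with B2, and in B2B1 against B1 the called members are Blnk, Vav1 and Dapp1.

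Of the 13 member calls, 7 were kept under all 21 alternatives: those of Syk, Btk and Blnk in both comparisons with B2, and that of Vav1 in B2B1 against B2. Single libraries moved several members together. B1 library 2 was the lowest of its group for 7 of 8 members, with Btk the exception. B2 library 2 was the lowest of its group for 6 members and B2B1 library 2 for 5.

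Since Syk transcripts were higher and Blnk transcripts lower outside B2, their ratio restates these differences within each library and is given as a description. The ratio of Syk to Blnk was 1.69 ± 0.207 in B2, 6.12 ± 1.40 in B2B1 and 4.75 ± 0.324 in B1. The B2 libraries lay between 1.45 and 1.83 and no peritoneal library was below 4.51. The B2B1 and B1 libraries overlapped. The ratio of Plcg2 to Blnk was 0.519 ± 0.013 in B2, 0.844 ± 0.0134 in B1 and 1.02 ± 0.107 in B2B1, with no overlap between the groups. The ratio of Btk to Blnk, both of which fell, was 0.628 ± 0.0044 in B2 and 0.678 ± 0.0832 in B1, which overlapped, and 0.846 ± 0.0315 in B2B1, where every library was above those of both other groups.

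**Figure D3:**
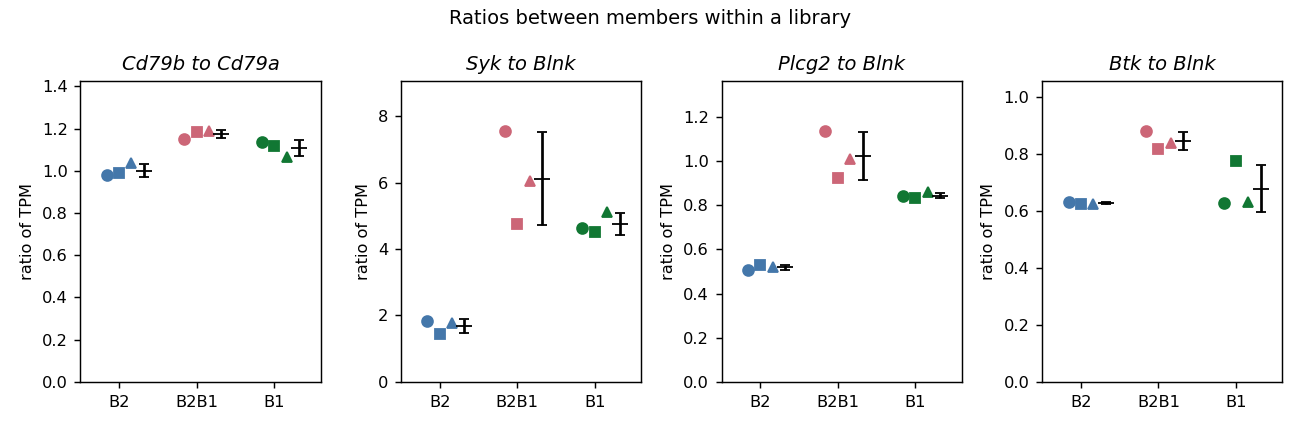
Ratio of the TPM of 2 members within each library, for B2 (blue), B2B1 (red) and B1 cells (green), with black bars for the mean ± SD of 3 libraries; each vertical axis starts at 0. The ratio of Syk to Blnk stays at or under 1.83 in B2 and at or above 4.51 in every peritoneal library, and the 3 groups are apart in the ratio of Cd79b to Cd79a.

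The 8 genes lie on 8 different chromosomes, so none neighbours another. In GRCm38 (GENCODE M21), Blnk lies on chromosome 19 from 40928927 to 40994535 on the minus strand, Btk on X from 134542336 to 134583570 on the minus strand, Vav1 on chromosome 17 from 57279100 to 57328031 on the plus strand, and Syk on chromosome 13 from 52583173 to 52648792 on the plus strand. No annotated exon of another gene overlaps an exon of any of the 8, on either strand. RefSeq promoter windows (GRCm38.p6), which run from 250 bases before a start to 50 after it, were matched for 7 members. Those of the 4 genes called in the same direction in both comparisons with B2 are shown so that the 3 that fell can be read beside the 1 that rose. For Syk the first of 2 listed starts is printed. Capitals mark AGGAAGT (an ETS family core), ATGCAAAT (the octamer) and CCCNNGGG (an EBF core), searched on both strands.
Blnk, chr19:40994172-40994471, minus strand: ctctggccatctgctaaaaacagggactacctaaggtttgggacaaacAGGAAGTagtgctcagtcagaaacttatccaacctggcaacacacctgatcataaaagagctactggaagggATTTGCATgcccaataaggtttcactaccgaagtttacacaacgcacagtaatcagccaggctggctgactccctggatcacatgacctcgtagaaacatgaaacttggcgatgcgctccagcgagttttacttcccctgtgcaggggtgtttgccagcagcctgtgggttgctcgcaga
Vav1, chr17:57278850-57279149, plus strand: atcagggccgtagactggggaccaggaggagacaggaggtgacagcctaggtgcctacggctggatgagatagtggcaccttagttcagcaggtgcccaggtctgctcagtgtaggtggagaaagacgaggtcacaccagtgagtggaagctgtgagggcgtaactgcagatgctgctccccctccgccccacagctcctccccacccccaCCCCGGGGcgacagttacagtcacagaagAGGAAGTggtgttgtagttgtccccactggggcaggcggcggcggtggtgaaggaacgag
Btk, chrX:134583091-134583390, minus strand: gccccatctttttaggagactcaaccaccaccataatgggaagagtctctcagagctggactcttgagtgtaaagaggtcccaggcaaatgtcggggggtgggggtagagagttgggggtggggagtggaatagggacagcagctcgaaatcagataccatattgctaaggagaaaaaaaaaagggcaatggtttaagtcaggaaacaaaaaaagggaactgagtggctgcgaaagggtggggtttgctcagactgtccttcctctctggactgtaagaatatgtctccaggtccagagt
Syk, chr13:52583187-52583486, plus strand: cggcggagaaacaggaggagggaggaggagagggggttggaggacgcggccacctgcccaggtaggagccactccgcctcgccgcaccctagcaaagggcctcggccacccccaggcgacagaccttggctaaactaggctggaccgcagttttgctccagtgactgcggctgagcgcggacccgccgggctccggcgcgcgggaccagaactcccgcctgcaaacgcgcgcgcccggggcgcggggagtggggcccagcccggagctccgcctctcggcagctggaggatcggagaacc

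The Blnk window holds AGGAAGT, beginning 202 bases before the start, and the octamer, read on the other strand, beginning 130 bases before it. The Vav1 window holds CCCNNGGG 39 bases and AGGAAGT 10 bases before its start, without overlap. Neither the Btk window nor the windows of Syk hold any of the 3. These windows lie inside the annotated genes, which begin at 134583570 (Btk, minus strand) and 52583173 (Syk, plus strand). The sequence before those positions was not searched, so the lack of a match holds for the windows alone. AGGAAGT was found in 4 of the 8 windows of the 7 matched members, those of Blnk, Vav1, Cd79a and Dapp1. Of all 32851 RefSeq windows of this length, 9.35% held it. The octamer was in 1.74% and CCCNNGGG in 13.7% of all windows. The letters were chosen with the sequences in view, and a match is a description of the sequence and not a binding site.

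The genes whose pattern over the 9 libraries was closest to that of a member were found by the root mean square difference of centred log2 values among 8542 candidates. Sharpin (0.0439) and Zfp335 (0.0469) were closest to Btk, with Sharpin at 159.7 TPM in B2, 91.8 in B2B1 and 98.5 in B1. Cbx7 (0.0538) and Cnnm4 (0.0759) were closest to Blnk, with Cbx7 at 220.4, 92.5 and 132 TPM. Epc1 (0.0392) and Tab2 (0.0409) followed Vav1, Rcsd1 (0.0844) and Ypel3 (0.0862) followed Dapp1, and Zfyve16 (0.0459) and Tmed4 (0.0514) followed Plcg2. Slc44a1 (0.0975) and Tom1l2 (0.11) were nearest to Syk but less close than the nearest genes of the other members. Ly6e (0.0457) and Pde4dip (0.0473) were nearest to Cd79a, and Twf2 (0.0556) and Pfdn5 (0.0583) to Cd79b.

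Other genes of the pathway were read from 6 lists of 73 genes, of which 72 were in the table and 66 passed the filter on low values. In B1 against B2, 11 of the 66 were called higher and 28 lower by limma, beside 18.0% and 33.9% of all genes, with a median log2 fold change of −0.13. In B2B1 against B2, 7 were higher and 40 lower (median −0.33), beside 21.0% and 42.0% of all genes. For B2B1 against B1, 8 were higher and 23 lower (median −0.18), beside 6.93% and 12.1%. Medians over all genes were −0.14, −0.19 and −0.06. With median-of-ratios scaling these counts became 20 and 23, 19 and 29, and 8 and 19, so that lower calls stayed more numerous but by a smaller margin. Over all 11099 genes that scaling gave 2843 and 2464, 3494 and 3031, and 1087 and 894. Quantile normalization gave 13 and 25, 15 and 32, and 7 and 20.

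**Figure D4:**
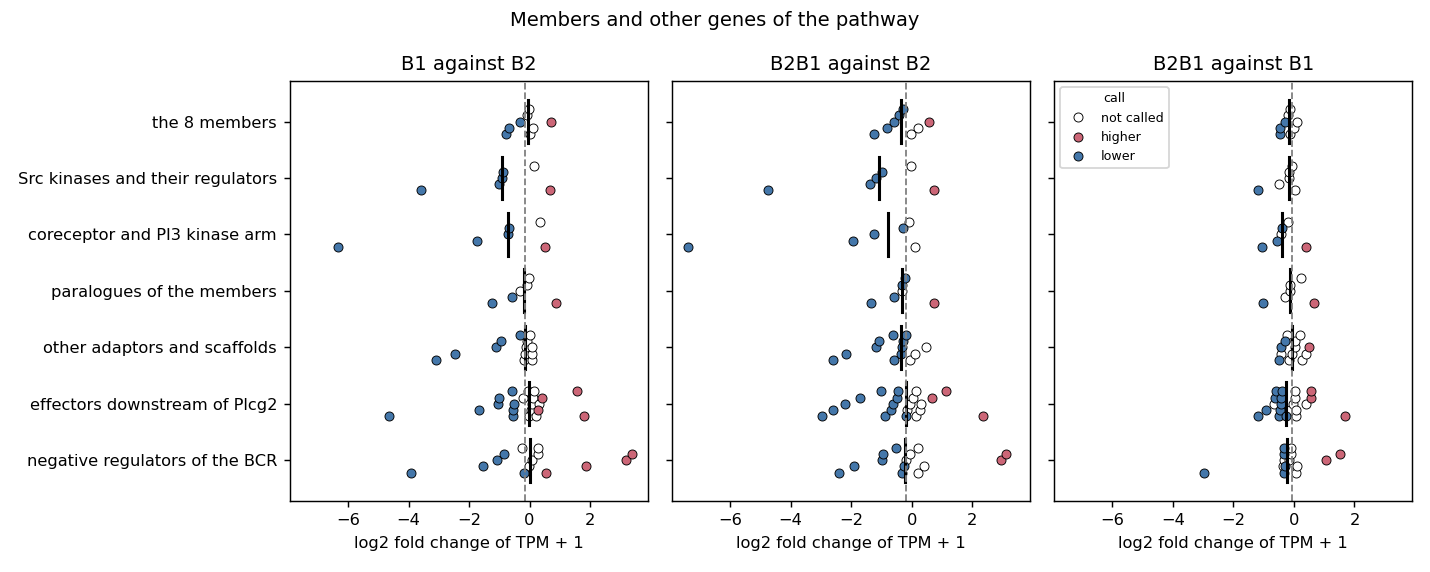
Log2 fold change of TPM + 1 for the members and for the tested genes of 6 pathway lists in the 3 comparisons; each point is a gene, filled red where called higher, blue where called lower and white where not called, with a black bar for the list's median and a dashed line for the median of all genes. Src kinases and their regulators have 1 gene called higher, Blk, and 4 called lower in both comparisons with B2. Of all genes, 18.0% were called higher and 33.9% lower in B1, and 21.0% and 42.0% in B2B1.

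Upstream of Syk, the Src family kinases that phosphorylate the receptor tails went different ways. Blk was higher in B1 and in B2B1, at 640.2 and 658 TPM against 395 in B2 (log2 fold changes 0.69 and 0.73, limma adjusted p = 0.000133 and 6.44e-05). Fyn fell from 26.8 TPM in B2 to 14.3 in B1 and 10.0249 in B2B1 (log2 fold changes −0.89 and −1.38), although its call in B1 was lost with both B2 library 2 and B1 library 2 left out. Lyn, the main Src kinase of B cells, was at 296 TPM in B2, 325 in B1 and 288 in B2B1 and did not pass. The genes that set Src kinase activity were lower: Ptprc (CD45), the phosphatase that opens these kinases, at 699 TPM in B2, 350.1 in B1 and 311 in B2B1, and Csk, the kinase that closes them, at 267, 142 and 137 TPM. Pag1, the membrane anchor of Csk, was at 73.5 TPM in B2, 5.27 in B1 and 1.76 in B2B1 (log2 fold changes −3.57 and −4.75, adjusted p = 1.70e-08 and 5.01e-09). It was the 1 gene of this list called in B2B1 against B1 (−1.18), where 19.0% of all genes were called.

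The coreceptor that lowers the threshold of the BCR was read in a list with the PI3 kinase arm. Of 6 genes, 4 were called lower in B1 and 4 in B2B1, beside 33.9% and 42.0% of all genes. Cr2, Cd81 and Pik3ap1 were among them in both. Cr2, the complement receptor of the coreceptor, was at 620.5 TPM in B2, 6.88 in B1 and 2.83 in B2B1 (log2 fold changes −6.34 and −7.39, limma adjusted p = 1.94e-07 and 7.72e-08). Cd81, a tetraspanin, was at 255 TPM in B2, 157 in B1 and 206 in B2B1, and in B2B1 against B2 it did not pass under median-of-ratios scaling (−0.08). Pik3ap1 (BCAP), an adaptor for PI3 kinase, was at 145 TPM in B2, 43.8 in B1 and 37.6 in B2B1. Pik3r1, the regulatory subunit of PI3 kinase, was higher in B1 (0.50, adjusted p = 0.00421), and Pik3cd, its catalytic partner, did not pass. In B2B1 against B1, Cd81 was higher (0.39), and Cr2 (−1.05) and Pik3r1 (−0.38) were lower. The Cr2 call there was lost without B1 library 1 and in a fit of the 2 groups alone, and that of Pik3r1 under 14 of 21 alternatives.

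Of 11 paralogues of the members, 6 passed the filter on low values. In B1 against B2 1 of these was called higher and 2 lower, beside 18.0% and 33.9% of all genes. In B2B1 against B2 the counts were 1 and 4, beside 21.0% and 42.0%. Zap70 (for Syk), Txk (for Btk) and Lcp2 and Clnk (for Blnk) averaged under 1 TPM over the 9 libraries and were not tested, and Clnk was listed at 0 in every library. Tec, the other Tec kinase of B cells, was at 89.1 TPM in B2, 72.1 in B1 and 34.9 in B2B1, lower in B2B1 than in B2 (−1.35, limma adjusted p = 0.000159) and than in B1 (−1.04, adjusted p = 0.00458). Plcg1 was at 36.5 TPM in B2, 15.0309 in B1 and 24.1 in B2B1 and was lower in both (−1.24 and −0.59), and higher in B2B1 than in B1 (0.65). Plekha1, whose product binds the lipid that PI3 kinase products decay to, was higher in both (0.88 and 0.74), and Vav2 and Plekha2 were lower in B2B1 against B2 (−0.23 and −0.32). The Vav2 call was lost with either other scaling, and the Plekha2 call under 9 of 21 alternatives, which included leaving out B2 library 1 or 3 or any B2B1 library. Vav3 was lower in B1 (−0.57), a call lost under 10 of 20 alternatives.

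Among 13 tested adaptors and scaffolds, 0 were called higher in B1 or B2B1 against B2, beside 18.0% and 21.0% of all genes. Called lower were 5 in B1 and 10 in B2B1, beside 33.9% and 42.0%. With median-of-ratios scaling 2 were called higher in B1 and 3 in B2B1, beside 2843 and 3494 of all 11099 genes. Themis2, an adaptor that binds Grb2, fell from 166 TPM in B2 to 30.0 in B1 and 36.3 in B2B1 (log2 fold changes −2.45 and −2.17, limma adjusted p = 3.00e-06 and 4.58e-06). Nck2, which links receptors to the cytoskeleton, fell from 16.6 TPM to 1.05 and 1.89 (−3.10 and −2.61), while its relative Nck1 was lower by a smaller amount (−0.32 and −0.28), and under median-of-ratios scaling Nck1 passed in neither. Sh3bp2 (−0.95 and −1.17) and Stap1 (−1.12 and −1.08) completed the 5 in B1. In B2B1, Sh3kbp1 (−0.61), Bank1 (−0.60), Crkl (−0.34), Cd2ap (−0.36) and Hcls1 (−0.20) were lower too. Of these, the call of Crkl was lost with either other scaling, that of Cd2ap under 10 and that of Hcls1 under 11 of 21 alternatives. Against B1, B2B1 was higher in Nck2 (0.49) and lower in Sh3kbp1 (−0.42), Bank1 (−0.50) and Hcls1 (−0.30), where only the Sh3kbp1 call was kept under all alternatives.

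Downstream of Plcg2, 4 of 21 effectors were called higher and 8 lower in B1, and 3 higher and 11 lower in B2B1. Of all genes 18.0% were higher and 33.9% lower in B1, and 21.0% and 42.0% in B2B1, so the list's counts in B1 lay near the background. Under median-of-ratios scaling they were 8 and 6 in B1, and 8 and 9 in B2B1. Of all 11099 genes, 2843 were then higher and 2464 lower in B1, and 3494 and 3031 in B2B1. The Ras activators that sense diacylglycerol moved apart: Rasgrp3 was at 156 TPM in B2, 5.31 in B1 and 19.6 in B2B1, and Rasgrp1 at 65.8, 196 and 145 TPM (log2 fold changes 1.56 and 1.13, limma adjusted p = 2.10e-07 and 1.18e-06). Dgka and Dgkz, kinases that remove diacylglycerol, were both lower, Dgka from 279.6 TPM in B2 to 86.3 in B1 and 44.9 in B2B1 (−1.68 and −2.62). Of the calcium channels of the endoplasmic reticulum, Itpr3 was at 174 TPM in B2, 90.2 in B1 and 37.5 in B2B1, and Itpr2 was lower in both as well (−0.56 and −1.02), whereas Itpr1 was higher in B1 (0.28), a call lost under 8 of 21 alternatives. Nfatc1, a transcription factor that calcium brings to the nucleus, was at 72.2 TPM in B2, 258 in B1 and 376 in B2B1 (1.79 and 2.36, adjusted p = 2.93e-05 and 4.13e-06).

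Genes that link protein kinase C to NF-kappaB differed between B2B1 and B1. Malt1 and Prkcb were lower in B2B1 than in B1, with log2 fold changes of −0.64 and −0.42 (limma adjusted p = 0.0014 and 0.00852). Bcl10, the partner of Malt1, was higher (0.55, adjusted p = 0.00171), at 143 TPM in B2B1, 97.9 in B1 and 89.7 in B2. Between B1 and B2 none of these 3 was called (−0.21 to 0.12, adjusted p from 0.0574 to 0.554). These 3 were picked out of the list after their values were seen.

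Among negative regulators 4 of 14 were called higher and 5 lower in B1, beside 18.0% and 33.9% of all genes, and 2 higher and 7 lower in B2B1, beside 21.0% and 42.0%. Ptpn22, a phosphatase that acts on Src and Syk family kinases, was at 46.2 TPM in B2, 403 in B1 and 379 in B2B1 (log2 fold changes 3.20 and 3.10, limma adjusted p = 4.17e-05 and 3.51e-05). Ubash3b (Sts-1), a phosphatase known to act on Syk, was at 6.02 TPM in B2, 25.2 in B1 and 52.9 in B2B1 (1.88 and 2.94). Ptpn6 (SHP-1), which inhibitory receptors recruit, was at 713 TPM in B2, 401 in B1 and 358 in B2B1. Of the inhibitory receptors listed, Cd72, Cd22 and Lair1 were lower in both. Cd72 went from 417 TPM in B2 to 27.9 in B1 and 79.2 in B2B1, and Lair1 averaged only 2.91 TPM in B2. Siglecg was at 763 TPM in B2, 807 in B1 and 644 in B2B1. It was not called in B1 and was lower in B2B1 (−0.25), a call lost under median-of-ratios scaling. Fcgr2b was called in neither. Cd5 and Cblb were higher in B1 (3.38 and 0.54) and did not pass in B2B1 against B2 (0.39 and 0.21). Between B2B1 and B1, Cd72 and Ubash3b were higher in B2B1 (1.51 and 1.06), and 5 genes were lower: Cd5 (−2.99), Inpp5d (−0.32), Siglecg (−0.32), Cbl (−0.30) and Cblb (−0.33). Of all genes 6.93% were higher and 12.1% lower in B2B1 than in B1. All of the 5 but Cd5 lost the call with a sex term, and those of Cbl and Cblb were lost under 7 and 8 of 21 alternatives.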

How the data were processed

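RNA-seq of 9 libraries was analysed, 3 each of B2, B1 and B2B1 cells, grouped by their titles. Per the labels' protocols, a Qiagen RNeasy micro kit gave the RNA and an Illumina TruSeq kit the libraries. Per the submitters' processing notes, the tools were CASAVA 1.8.2 and kallisto, and the build was mm10; how transcripts were defined is not given in the sources used here. Deposited values are TPM per gene, made by the authors, without counts, so neither depth nor an interval for counting error can be given. None of the 8 members is in the signature of 28 genes that the authors also deposited.

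Values were analysed as log2(TPM + 1), which understates changes of low genes, for the 11099 genes with a mean of at least 1 TPM. The 3 comparisons were fitted with limma 3.58.1 in R 4.3.3 in 1 model over all 9 libraries (lmFit, contrasts.fit, eBayes with trend), two-sided, with Benjamini-Hochberg adjustment over all genes tested within a comparison; the code was tested on simulated data. Values after ± are SE for fold changes and SD otherwise. The 20 other settings first chosen covered pseudocounts, filters, scaling, moderation, the groups fitted, a replicate block, sex read from Xist and Ddx3y, and each library left out; 1 more, leaving out B2 library 2 and B1 library 2 together, was added after seeing the data. Over all tested genes, same-numbered libraries did not deviate together in every pair (r from −0.0583899 to 0.123 across genes).

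The members and lists were chosen with earlier results of these data known. All members are named, with up to 3 called genes of each pathway list per comparison by adjusted p, the genes making up counts of 5 or fewer, and the 2 genes closest to each member in pattern. Figures were drawn with matplotlib 3.10.9. Pirb and Cd68 were not analysed here, and the values of some other list genes are not reported here.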

Additional observations from a re-analysis of the deposited data

How the results depend on the processing

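The number of genes called in B1 against B2 and in B2B1 against B2 stayed within 1.5 times under every alternative. In B2B1 against B1 it was 2108, and fell to 1129 in a fit of these 2 groups alone and to 842 with a sex term. Sex and group are partly confounded in that comparison. Leaving out single libraries gave 1336 (without B1 library 1) to 2439. Of the genes called, 2003 were higher and 3762 lower in B1 against B2, 2332 and 4663 in B2B1 against B2, and 769 and 1339 in B2B1 against B1. Median-of-ratios scaling gave 2843 and 2464, 3494 and 3031, and 1087 and 894, and quantile normalization 2477 and 2867, 2973 and 3538, and 912 and 983. That scaling moved the median of all genes from −0.14 to 0.01, from −0.19 to 0.02 and from −0.06 to 0.007. The cause of these shifts was not tested. With the replicate block 5533, 6855 and 1737 genes were called, and no member's call changed; the labels share only a number.

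Sign changes were found only for member differences that were not called. Log2 fold changes of B1 against B2 were as follows. Cd79a was 0.127 with median-of-ratios scaling and 0.0787 with B2 library 2 and B1 library 2 left out, and ran from −0.106 to 0.0805 over the single libraries left out. Cd79b was −0.0166 after quantile normalization. Plcg2 was 0.0715 with median-of-ratios scaling, 0.0365 after quantile normalization, 0.0075 with both libraries left out, and −0.148 to 0.0108 over single libraries. Dapp1 was −0.0257 with a sex term and −0.0993 to 0.152 over single libraries. For B2B1 against B2, Cd79a was 0.198 with median-of-ratios scaling and −0.0886 to 0.000792 over single libraries, and Cd79b was −0.0277 after quantile normalization. For B2B1 against B1, Cd79a was −0.13 after quantile normalization, −0.0241 with a sex term, −0.111 with both libraries left out and −0.111 to 0.075 over single libraries. Cd79b was −0.0111 after quantile normalization, −0.016 with both left out and −0.016 to 0.181 over single libraries. Syk was 0.0657 with a sex term and −0.242 to 0.00777 over single libraries. TPM keep no depth, so precision rests on 3 libraries a group.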
